A study of Homo sapiens with 8 samples.

Results

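The nuclear-encoded subunits of the mitochondrial respiratory chain were examined in MeRIP-seq libraries of SK-N-BE(2), an established human neuroblastoma cell line. Members were taken by name from the count table: the NDUFA, NDUFB, NDUFC, NDUFS and NDUFV genes of complex I, SDHA to SDHD of complex II, the UQCR genes and CYC1 of complex III, the COX5 to COX8 genes of complex IV and the ATP5 genes of complex V. No measured value was used. This gave 84 members of 56303 listed genes, with 37 in complex I, 4 in complex II, 10 in complex III, 14 in complex IV and 19 in complex V, after 52 names ending in P and a number, the usual form for pseudogenes, were left out.

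The cells of the control arm expressed a control hairpin (sh-NC), and those of the knockdown arm expressed a hairpin against METTL14 (shMETTL14). METTL14 is a subunit of the enzyme that writes N6-methyladenosine (m6A) on messenger RNA. Lentiviral pLKO.1 vectors and puromycin selection gave the shRNA-expressing cells, so all 4 cultures shared infection and selection. There were 2 cultures per arm, numbered 1 and 2, and the labels do not say whether the shMETTL14 cultures carried the same shRNA or 2 different ones. Each culture gave an input library of fragmented polyadenylated RNA and an IP library of the fragments that an anti-m6A antibody pulled down, 8 libraries in all, with 32027379 to 47205265 counted reads each.

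The respiratory chain passes electrons from NADH (complex I) or succinate (complex II) through ubiquinone to complex III, then through cytochrome c to complex IV, which reduces oxygen. Complexes I, III and IV pump protons across the inner membrane, and complex V, the ATP synthase, uses that gradient to make ATP. Most subunits are encoded in the nucleus, translated in the cytosol and imported, while a small set, including the proton-pumping cores, is encoded by mitochondrial DNA. In MeRIP-seq, the ratio of a gene's scaled level in the IP to that in the input (IP over input) shows whether its RNA was pulled down more or less than that of the typical gene in the same libraries. The counts are per whole gene, so they do not show where in a transcript the pulled-down fragments lay.

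METTL14 itself stood at 49.5 and 48.8 normalised counts scaled to a common library size (CPM) in the sh-NC input libraries and had come down to 13.7 and 14.7 CPM in those of shMETTL14. That is a log2 fold change of -1.79 ± 0.07 (SE, n = 2 cultures per arm, edgeR adjusted p = 1.28e-15). Of 10 markers of the adrenergic neuroblastoma state, 7 rose with the knockdown and none fell, and their summed input level ran from 5879 to 6111 CPM in sh-NC and from 6220 to 6302 CPM in shMETTL14. Of 5 mesenchymal markers, 3 fell and 1 rose, with sums of 2106 to 2169 CPM against 1736 to 1738 CPM. Summed input levels ran from 1.63 to 2.14 CPM for 4 immune markers, from 5.34 to 6.46 CPM for 3 epithelial, from 0.14 to 0.50 CPM for 2 endothelial and from 1.30 to 2.33 CPM for 3 muscle markers. No count in any library fell on 2 of 3 testis markers. The part of this marker shift in the values below was not tested. In bulk RNA, fewer cells of a kind and less RNA per cell cannot be told apart.

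Several members need a word on identity. All 84 lay at their RefSeq place in GRCh38, 64 under their current symbol and 20 under an older one, mostly ATP5 genes. NDUFA4, named as a complex I subunit, is now COXFA4 and belongs with complex IV. ATP5S and ATP5SL (now DMAC2L and DMAC2) carry ATP synthase names without being subunits, and RefSeq lists ATP5J2LP as a pseudogene. UQCRHL is an intronless, near-identical copy of UQCRH, so reads could be split between them. Exonic bases were shared with another gene by 42 members, and their counts are less certain. Among genes that lay almost wholly inside the exons of a gene on the opposite strand, 85.3% of 360 pairs had an inner read density of at least 0.1 times the outer one, and the counts of overlapping and antisense partners are taken here as not kept apart.

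Summed over the members, input levels were close in the arms. Complex I summed to 2442 and 2497 CPM in sh-NC, with 2471 and 2563 CPM in shMETTL14. Complex V summed to 1428 and 1421 CPM against 1417 and 1430 CPM. Complex III gave 883 and 876 CPM against 874 and 896 CPM. In these 3 complexes the arms overlapped. Complex II lay lower in both shMETTL14 libraries, at 270 and 273 CPM against 285 and 291 CPM in sh-NC. Complex IV did too, at 624 and 638 CPM against 661 and 664 CPM. The order of the sums follows the number of genes as well as their levels.

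**Figure D1:**
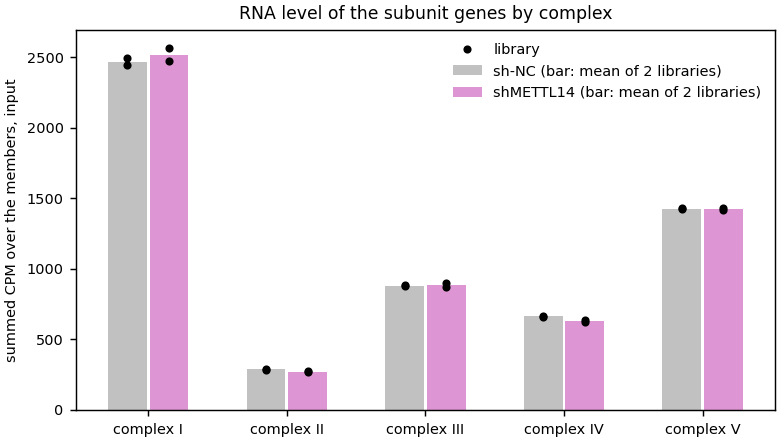
Summed CPM (vertical axis) over the members of each complex (horizontal axis) in the 4 input libraries; bars are the mean of the 2 libraries of an arm and points are libraries. The arms overlap in complexes I, III and V, and both shMETTL14 libraries lie below both sh-NC libraries in complexes II and IV.

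Levels of different genes were compared as CPM per kilobase of annotated exon. That length joins all annotated exons and so understates genes with long annotations. NDUFS5, an accessory subunit of the complex I membrane arm, had the highest level of the 37 complex I members in sh-NC input, at a mean of 471 CPM per kilobase. UQCRH, the acidic hinge protein of complex III, led its complex at 181 CPM per kilobase, and ATP5B, the catalytic beta subunit of ATP synthase, led complex V at 150.5 CPM per kilobase. COX5B led complex IV at 80.2 CPM per kilobase. SDHA, the flavoprotein that oxidises succinate, led complex II at 19.9 CPM per kilobase, with 8383 annotated exonic bases against 548 for NDUFS5. Without division by length, SDHA stood at a mean of 167 CPM in sh-NC input and COX5B at 115.5 CPM. The counts on the 3 named pseudogenes of SDHA came to 26.7% of its own.

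For subunits with tissue isoforms, 1 form carried nearly all counts. COX6A1 stood at a mean of 45.7 CPM per kilobase in sh-NC input, while the heart and muscle form COX6A2 had no count in any of 8 libraries, where a count of 0 allows up to 0.0659 to 0.0986 CPM (3 counts in a library, counting error only). COX7B stood at 19.9 CPM per kilobase and COX7B2 had no count. The heart and muscle form COX7A1 had 31 counts in the 8 libraries together, against 36.6 CPM per kilobase for COX7A2. COX8C had 30 counts and COX6B2, the testis form, 63, against 31.7 CPM per kilobase for COX8A and 41.9 for COX6B1. ATP5L2 had 49 counts and ATP5J2LP 1. These 7 genes did not pass the filter on low counts in the input libraries, and 77 members were tested there. COX6B2 alone of the 7 passed in the model of 8 libraries, where 78 members were tested.

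The c ring of ATP synthase is built from identical mature proteins encoded by ATP5G1, ATP5G2 and ATP5G3. Their mean levels in sh-NC input were 3.92, 11.9 and 7.46 CPM per kilobase. ATP5G2 stood at 47.02 and 48.3 CPM in sh-NC input, with 54.5 and 45.2 CPM in shMETTL14 input, so the arms overlapped. ATP5G3 stood at 50.2 and 50.9 CPM against 53.1 and 52.7 CPM, and ATP5G1 at 9.01 and 11.5 CPM against 8.87 and 8.23 CPM, both without overlap. None of the 3 passed the test between the arms (log2 -0.26 ± 0.12 for ATP5G1, 0.07 ± 0.07 for ATP5G2 and 0.07 ± 0.05 for ATP5G3). Without the first sh-NC culture, ATP5G1 passed at -0.42 (edgeR adjusted p = 0.0260).

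Respiratory chain genes are known for promoters that hold sites of NRF1 and of ETS-family factors such as GABP, and YY1 is another regulator of such genes. RefSeq promoter windows (GRCh38.p14, 250 bases before to 50 after the start, the first of the starts listed for a gene) were at hand for 66 of the 84 members and for 27305 genes in all. The letters GCATGCGC, the core of the NRF1 motif, were found on either strand in 19.7% of member promoters and 3.27% of all promoters. The ETS letters CCGGAAG were found in 27.3% against 10.7%, and the YY1 letters AAGATGGC in 16.7% against 3.03%. These are matches of letters, not measured binding. The 27305 genes were not matched to the members by RNA level or kind of gene. The stretches below come from members whose RNA levels are given next, 4 that differed between the arms and COX5B, the member of complex IV with the highest level. Each runs 5′ to 3′ on the gene's strand, with the motif letters of either strand in capitals.
SDHB, chr1:17054144-17054242, minus strand, NRF1 letters then ETS letters: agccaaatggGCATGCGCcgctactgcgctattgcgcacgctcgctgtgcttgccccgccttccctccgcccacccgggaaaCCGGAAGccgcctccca
SDHD, chr11:112086748-112086785, plus strand, NRF1 letters: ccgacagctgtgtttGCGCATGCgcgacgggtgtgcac
COX5B, chr2:97645916-97646041, plus strand, NRF1 letters then ETS letters: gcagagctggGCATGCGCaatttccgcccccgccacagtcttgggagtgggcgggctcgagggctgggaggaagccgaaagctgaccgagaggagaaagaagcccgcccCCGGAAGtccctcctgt
NDUFB7, chr19:14572069-14572105, minus strand, ETS letters: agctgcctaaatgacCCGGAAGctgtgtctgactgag
NDUFS1, chr2:206159580-206159616, minus strand, ETS letters: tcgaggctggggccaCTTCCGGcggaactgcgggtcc
SDHB also holds the YY1 letters, past its start and outside the stretch shown. In SDHD a second NRF1 match on the other strand overlaps the one shown, and an ETS match lies closer to the start. ATP5J, which like SDHB holds all 3 sets of letters, is not shown and did not pass between the arms in the input (log2 -0.02 ± 0.05).

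The first comparison asked which subunit genes differed in RNA level after METTL14 knockdown, by the 4 input libraries. Of 77 members tested, 6 were higher and 9 lower at an adjusted p under 0.05 (edgeR quasi-likelihood test). Over all 22245 genes tested, 11.7% were higher and 12.3% lower, so the members' shares of 7.79% and 11.7% were near or under the background. The members' median log2 fold change was -0.01, against 0.00 over all genes, and no member reached 0.5 in size. The median size was 0.07 for members and 0.18 for all genes tested, which were not matched to the members by RNA level. Leaving out the second shMETTL14 culture left 0 members called in either direction by edgeR (6 higher and 8 lower at an unadjusted p under 0.05), and over all genes the calls came down from 2607 higher and 2732 lower to 656 and 925. Leaving out the first left 4 higher and 3 lower (1355 and 1523 over all genes), and without 1 of the sh-NC cultures 5 or 6 were higher and 6 lower. DESeq2 on all 4 libraries gave 5 and 7 (1833 and 2016 over all genes).

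**Figure D2:**
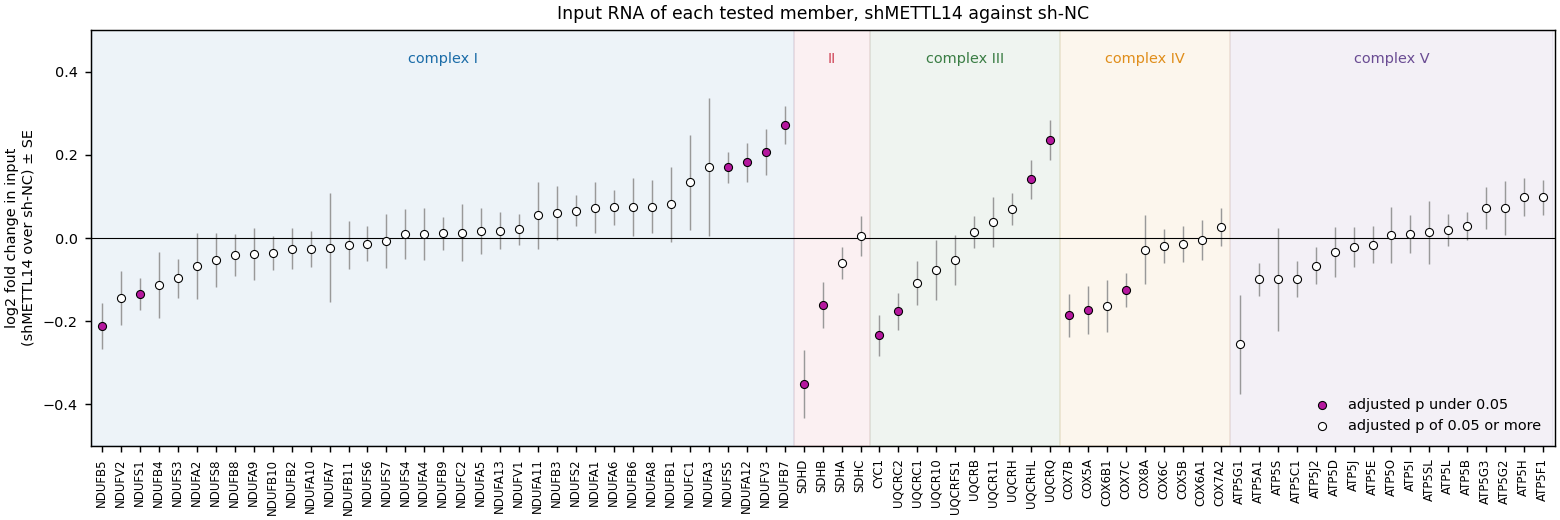
Log2 fold change of input RNA in shMETTL14 over sh-NC with its standard error (vertical axis) for the 77 tested members, grouped by complex; filled points passed an adjusted p under 0.05. The 15 filled points lie between -0.35 and 0.27, and complex V has none.

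In complex I, 4 of 37 members were higher and 2 lower. NDUFB7, an accessory subunit on the intermembrane side of the membrane arm, stood at 86.5 and 91.3 CPM in sh-NC and 103 and 111 CPM in shMETTL14 (log2 0.27 ± 0.05, adjusted p = 6.29e-05). NDUFS5 stood at 260.3 and 256 CPM against 277 and 301 CPM (log2 0.17 ± 0.04, adjusted p = 0.00144). The arms did not overlap for either. NDUFA12, an accessory subunit of the N module, stood at 71.3 and 70.4 CPM against 77.6 and 82.5 CPM (log2 0.18 ± 0.05, adjusted p = 0.00482). NDUFV3, which sits by the NADH-binding flavoprotein, completes the 4 and is named for that reason, with 38.2 and 37.2 CPM against 42.65 and 44.03 CPM (log2 0.21 ± 0.06).

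The 2 that fell were NDUFB5 and NDUFS1. NDUFB5, a membrane arm subunit, went from 47.5 and 46.5 CPM to 41.3 and 39.5 CPM (log2 -0.21 ± 0.05, adjusted p = 0.00566). NDUFS1, the largest iron-sulfur protein of the N module, went from 149 and 144 CPM to 133 and 133 CPM (log2 -0.14 ± 0.04, adjusted p = 0.0110). Both shMETTL14 libraries lay below both sh-NC libraries in each case. NDUFS1 was the only one of the 7 nuclear-encoded core subunits, which form the arm that carries electrons to ubiquinone, to pass the test, and the 7 ranged from -0.14 to 0.07. By place in the enzyme, the calls lay in the N module, which takes up electrons from NADH (2 higher and 1 lower of 10 members), and in the membrane arm (2 higher and 1 lower of 21).

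In complex II, 2 of the 4 subunits fell, 1 of the membrane part and 1 of the part in the matrix, and none rose (none at an unadjusted p under 0.05 and none by DESeq2). SDHD, 1 of the 2 membrane anchors that bind ubiquinone, stood at 18.6 and 18.7 CPM in sh-NC and fell to 15.03 and 14 CPM in shMETTL14. Its fold change of -0.35 ± 0.08 on the log2 scale (adjusted p = 0.00244) had the largest size of the 77. Without the second shMETTL14 culture it was -0.31 (adjusted p = 0.111). It shared 13.8% of its exonic bases with other genes, and its largest partner had 74.4% as many counts. SDHB, the iron-sulfur subunit, stood at 44.2 and 44.6 CPM against 40.2 and 38.8 CPM (log2 -0.16 ± 0.06, adjusted p = 0.0358). With DESeq2 the adjusted p for SDHB was 0.104, and it ran from 0.0855 to 0.260 when any single culture was left out.

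The other two subunits did not pass. SDHA stood at 165 and 169 CPM against 157 and 162 CPM (log2 -0.06 ± 0.04, adjusted p = 0.282). SDHC, the other anchor, stood at 57.6 and 59.1 CPM against 58.3 and 58.3 CPM (log2 0.01 ± 0.05, adjusted p = 0.959). The arms did not overlap for SDHA and overlapped for SDHC.

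Complex III had 2 members higher and 2 lower. Of 4 core and electron transfer members, CYC1 and UQCRC2 fell, none rose, and all 4 values lay below 0. CYC1, cytochrome c1, came down from 64.1 and 62.3 CPM in sh-NC to 54.2 and 52.7 CPM in shMETTL14 (log2 -0.23 ± 0.05, adjusted p = 0.000838). UQCRC2, a core protein, stood at 80.7 and 80.3 CPM against 70.0 and 71.8 CPM (log2 -0.18 ± 0.04, adjusted p = 0.00468). Of 6 small subunits, 2 rose and none fell. UQCRQ, a small subunit that contacts cytochrome b, stood at 66.8 and 72.1 CPM against 80.4 and 82.5 CPM (log2 0.24 ± 0.05, adjusted p = 0.000605). It shared 20.8% of its exonic bases with GDF9 on the opposite strand, which had 20.7% as many counts.

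UQCRHL stood at 76.3 and 70.9 CPM against 80.1 and 81.5 CPM (log2 0.14 ± 0.05, adjusted p = 0.0285), and its adjusted p was 0.0733 with DESeq2. Its near-identical source gene UQCRH stood at 255 and 256 CPM against 256 and 278 CPM (log2 0.07 ± 0.04, adjusted p = 0.203). The 2 groups of complex III members were not tested against each other.

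In complex IV none of 9 tested members rose (none at an unadjusted p under 0.05 and none by DESeq2 either) and 3 fell. COX7B went from 62.4 and 58.3 CPM to 51.6 and 54.0 CPM (log2 -0.19 ± 0.05, adjusted p = 0.00912). COX5A, a subunit on the matrix side, went from 39.0 and 38.9 CPM to 33.7 and 35.0 CPM (log2 -0.17 ± 0.06, adjusted p = 0.0311, or 0.0966 with DESeq2). COX7C went from 126.5 and 131 CPM to 116 and 120 CPM (log2 -0.12 ± 0.04, adjusted p = 0.0255). The arms did not overlap for any of the 3. The others gave log2 values of -0.16 ± 0.06 for COX6B1 (adjusted p = 0.0599), 0.03 ± 0.05 for COX7A2, -0.01 ± 0.05 for COX6A1, -0.03 ± 0.08 for COX8A, -0.01 ± 0.04 for COX5B and -0.02 ± 0.04 for COX6C.

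In complex V no tested member of 17 passed in either direction with edgeR or with DESeq2, and at an unadjusted p under 0.05 edgeR gave 2 higher and 3 lower. Values ran from -0.26 for ATP5G1 to 0.10 for ATP5F1, a subunit of the peripheral stalk. ATP5B had 356 and 343 CPM in sh-NC beside 349.6 and 360.5 CPM in shMETTL14, so the arms overlapped (log2 0.03 ± 0.03, adjusted p = 0.604). The 5 members of the catalytic F1 part ran from -0.10 to 0.03.

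Set beside the promoter letters shown above, 2 of 13 tested members with the NRF1 letters were lower in shMETTL14 input (SDHB and SDHD) and none higher, and of 49 without them 5 were lower and 4 higher. Of 18 with the ETS letters 2 were higher and 3 lower, and of 44 without them 2 and 4. Of 11 with the YY1 letters 0 were higher and 1 lower, and of 51 without them 4 and 6. Over all genes tested, 11.7% were higher and 12.3% lower. SDHB did not pass with DESeq2 (adjusted p = 0.1035). These splits were not tested.

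Outside the members, genes of the same pathway were counted from lists, beside 11.7% higher and 12.3% lower of all genes tested. Of 13 messenger RNAs of mitochondrial DNA, 8 were lower in shMETTL14 input and none higher. Their log2 values ran from -0.25 to 0.06 with a median of -0.10. Their sums were high, at 46660 and 45480 CPM in sh-NC against 43320 and 42290 CPM. MT-ND1, MT-ND4L and MT-CO2 had the smallest p-values, with log2 fold changes of -0.23, -0.25 and -0.24. Of 49 assembly factors 6 were higher and 9 lower, and the smallest p-values were those of TTC19, a complex III factor (log2 -0.67 ± 0.06), the copper chaperone COX17 (-0.38 ± 0.05) and the complex I factor NDUFAF2 (0.29 ± 0.05). Of 10 regulators of nuclear respiratory genes, GABPB1 rose (log2 0.25 ± 0.06) and GABPA fell (-0.23 ± 0.06), while NRF1, the factor whose letters were searched above, stood at -0.01 ± 0.10. Of 13 citrate cycle genes 3 were lower, SUCLG2 (-1.10 ± 0.08), IDH2 (-0.16 ± 0.04) and FH (-0.16 ± 0.06).

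Of 7 tested subunits or near relatives that the naming rule leaves out, 2 rose. NDUFA4L2, a relative of NDUFA4 known as a hypoxia-induced gene, went from 4.25 and 3.58 CPM to 9.01 and 8.57 CPM (log2 1.17 ± 0.13, adjusted p = 3.59e-07). COX7A2L, a factor of respiratory supercomplexes, rose by 0.17 ± 0.05 on the log2 scale. The other 5, among them COX4I1 and the cytochrome c gene CYCS, ran from -0.11 to 0.01 and did not pass.

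The IP libraries gave a separate reading of the arm difference from the same cultures. Of 78 members tested there, 11 were higher and 6 lower in shMETTL14, beside 9.79% higher and 11.6% lower of all 22953 genes tested. The median was 0.03 for members and 0.00 for all genes. Of the 15 members called in the input, 13 had the same sign in the IP and 7 were also called there in the same direction: NDUFA12, NDUFB5, NDUFB7, NDUFS1, NDUFS5, CYC1 and UQCRQ. Neither complex II call nor any complex IV call was among them. The member counts of 11 and 6 moved with single cultures, to 3 and 2 without the first sh-NC culture, 2 and 2 without the first shMETTL14 culture and 5 and 3 without the second. Over all genes the counts went from 2248 higher and 2658 lower to 1597 and 2222, 1240 and 1785, and 1241 and 1602 under the same settings. DESeq2 gave 7 and 3 members and 1757 and 2065 genes, and among the members it left out were NDUFB5 (adjusted p = 0.0504) and NDUFB7 (adjusted p = 0.0506).

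The next comparison asked how strongly each member's RNA was pulled down by the m6A antibody. In sh-NC, 52 of 78 members were lower in the IP than in the input and 15 higher, where 29.8% of all genes were lower and 29.1% higher. The members' median log2 IP over input was -0.54, against -0.01 over all genes, and 60 of 78 lay below 0. In shMETTL14 the counts were again 52 lower and 15 higher, beside 29.1% lower and 28.9% higher of all genes, and the members' median was -0.45. Without the first shMETTL14 culture 8 were higher there. Of all called genes 49.5% were higher in the sh-NC IP, against 39.4% with library size only as the scale. These values are relative to the scaling. With factors set on the lowest 25% of genes by that ratio, 93.9% of called genes were higher, all genes shifted to a median of 0.90 in sh-NC and the members to 0.37, with 50 members higher and 17 lower, so the direction of the typical member turned, as it did for members lying less far below 0 than the shift. The members' distance from all genes hardly moved, at -0.53 under either set. They are therefore described as low or high relative to the typical gene.

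**Figure D3:**
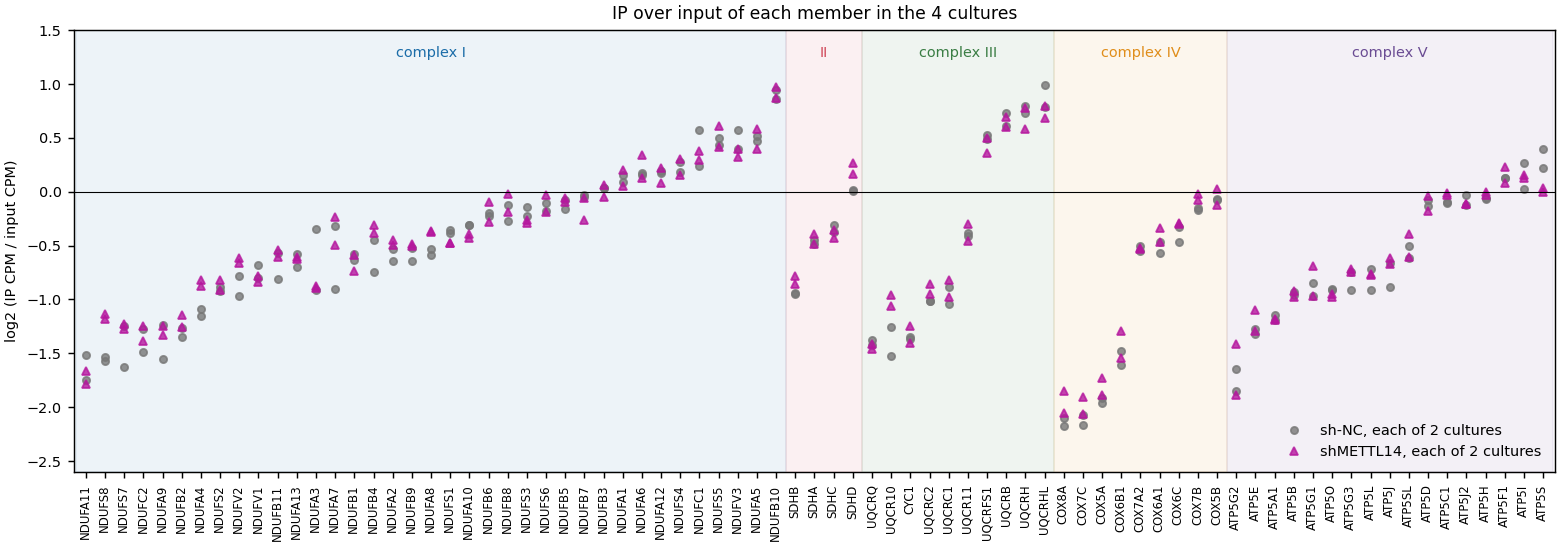
Log2 of the ratio of IP to input CPM (vertical axis) in each of the 4 cultures for the 77 members with a mean of at least 1 CPM in sh-NC input, grouped by complex and ordered by the fitted value in sh-NC; circles are sh-NC and triangles shMETTL14 cultures. COX8A, COX7C and COX5A lie near -2, NDUFB10, UQCRH and UQCRHL lie above 0.5, and complex IV has no member clearly above 0 with these factors.

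The cultures repeated each other closely. The log2 ratios of the 2 sh-NC cultures differed by a median of 0.08 over 77 members, at most by 0.58 (NDUFA7), while the members' fitted values ran from -2.13 to 0.90. In shMETTL14 the median difference was 0.10 and the greatest 0.47 (ATP5G2). The IP over input of the summed members was taken for each complex. For complex III it was 1.19 and 1.23 in sh-NC, then 1.23 and 1.15 in shMETTL14. Complex IV had 0.620 and 0.626 against 0.676 and 0.653, and complex V 0.677 and 0.672 against 0.691 and 0.684. Complex II had 0.727 and 0.724 against 0.756 and 0.727, and complex I 0.883 and 0.872 against 0.923 and 0.868. In every culture complex III had the highest summed ratio of the 5 and complex IV the lowest, an order that does not depend on the scaling. Sums weigh members by level, and in complex III the mean sh-NC input was 255.5 CPM for UQCRH, 175.2 for UQCRB and 73.61 for UQCRHL. By the members' median log2 in sh-NC the order was another. Complex III stood at -0.67, complex V at -0.78, complex I at -0.56, complex IV at -0.52 and complex II at -0.40.

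The 3 lowest members all belonged to complex IV. COX8A had a ratio of 0.234 and 0.222 in sh-NC, beside 0.240 and 0.278 in shMETTL14 (log2 in sh-NC -2.13 ± 0.12, adjusted p = 7.41e-22). COX7C had 0.238 and 0.223 against 0.240 and 0.267 (log2 -2.12 ± 0.05, adjusted p = 2.52e-35). COX5A had 0.265 and 0.257 against 0.302 and 0.271 (log2 -1.93 ± 0.08, adjusted p = 3.38e-27). Over the 4 cultures the ratios of these 3 messengers ran from 0.222 to 0.302. COX8A shared 34.5% of its exonic bases with another gene, while COX7C and COX5A shared none.

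In complex IV, 8 of 10 tested members were low and none high (none at an unadjusted p under 0.05 and none by DESeq2). COX6B1 stood at -1.54 ± 0.08, COX7A2 at -0.53 ± 0.05, COX6A1 at -0.52 ± 0.06, COX6C at -0.40 ± 0.04 and COX7B at -0.16 ± 0.05. COX5B did not pass (-0.07 ± 0.04), nor did COX6B2, which had few counts. With the lowest-ratio factors COX7A2, COX6A1 and COX7B turned from low to high. In shMETTL14, 7 of 10 were low, and COX7B did not pass (-0.05).

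Complex III held both ends. UQCRH had a ratio of 1.66 and 1.74 in sh-NC, beside 1.72 and 1.50 in shMETTL14 (log2 in sh-NC 0.76 ± 0.04, adjusted p = 1.15e-22). UQCRHL had 1.72 and 1.99 against 1.73 and 1.61 (log2 0.89 ± 0.05, adjusted p = 1.72e-22). Since the pair is near-identical, these are not independent readings. UQCRB, which helps bind ubiquinone, gave log2 0.67 ± 0.04, and UQCRFS1, the Rieske iron-sulfur protein, 0.51 ± 0.06. The other 6 were low, with UQCRQ at -1.40 ± 0.06, UQCR10 at -1.38 ± 0.09, CYC1 at -1.36 ± 0.06, UQCRC2 at -1.01 ± 0.05, UQCRC1 at -0.95 ± 0.06 and UQCR11 at -0.40 ± 0.07.

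In complex I, 25 of 37 members were low and 8 high. NDUFB10, a membrane arm subunit, was the highest of all 78, with a ratio of 1.82 and 1.92 in sh-NC, beside 1.96 and 1.83 in shMETTL14 (log2 in sh-NC 0.90 ± 0.04, adjusted p = 1.14e-24). NDUFA11 was the lowest of the complex at -1.64 ± 0.10. All 7 core subunits were low, from -1.56 ± 0.08 for NDUFS8 to -0.19 ± 0.05 for NDUFS3, and the 8 high members were all accessory subunits. In the N module 6 of 10 were low and 4 high (NDUFV3, NDUFS4, NDUFA12 and NDUFA6). In the Q module 4 of 5 were low and NDUFA5 was high, at 0.49 ± 0.05. In the membrane arm 14 of 21 were low and 3 high.

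In complex II, SDHB was low at -0.95 ± 0.06, SDHA at -0.46 ± 0.04 and SDHC at -0.34 ± 0.05, of which SDHA and SDHC turned to high with the lowest-ratio factors. SDHD had a ratio of 1.01 and 1.01 in sh-NC (log2 0.01 ± 0.08, adjusted p = 0.912) beside 1.12 and 1.2 in shMETTL14, where it passed the test as high (0.21, but not with DESeq2). In complex V, 10 of 17 members were low and 3 high. All 3 c ring genes were low, with ATP5G2 at -1.74 ± 0.08, ATP5G1 at -0.93 ± 0.13 and ATP5G3 at -0.82 ± 0.06, the last of which turned to 0.10 with the lowest-ratio factors. ATP5B stood at -0.94 ± 0.04 and ATP5A1, the other large F1 subunit, at -1.17 ± 0.05. The 3 high ones were ATP5I and ATP5F1, at 0.14 ± 0.05 and 0.13 ± 0.04, and ATP5S, which is no subunit, at 0.31 ± 0.12. With DESeq2 only ATP5F1 of these 3 passed (adjusted p = 0.0643 for ATP5I and 0.0859 for ATP5S).

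By contrast, 11 of the 13 mitochondrial DNA messengers were high in sh-NC and 1 was low, with a median of 0.61, and of 49 assembly factors 19 were high and 19 low, with a median of -0.01. Of 13 citrate cycle genes 11 were low and 1 high, with a median of -0.46. Over all genes tested, 29.1% were high and 29.8% low in sh-NC. These lists were not tested against the members.

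The values were also set beside annotated exonic length. Among all tested genes the median IP over input in sh-NC was -0.26 under 1000 bases, -0.04 from 1000 to under 2000, 0.02 from 2000 to under 4000 and 0.04 at 4000 or more. The members' medians in the same classes were -0.30 (8 members), -0.22 (21), -0.60 (29) and -0.65 (20). Of the 20 longest, 15 were low, where 31.0% of all genes of that length were. Over the 78 members Spearman's rho of IP over input with length was -0.14, and over all 22953 genes 0.12. These are descriptions across genes of the same libraries, and annotated length joins all transcript forms.

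**Figure D4:**
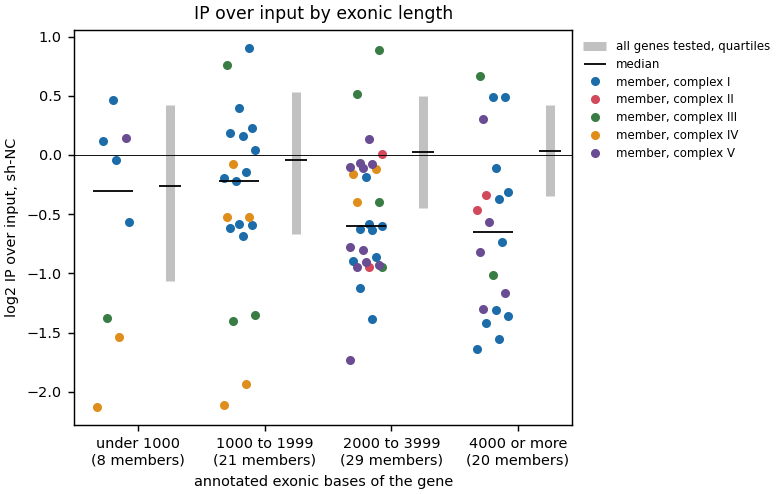
Log2 IP over input in sh-NC (vertical axis) by class of annotated exonic length (horizontal axis); points are members coloured by complex with the wide bar at their median, and grey bars span the quartiles of all tested genes of that class with their median. Members of 2000 bases or more have medians of -0.60 and -0.65, where all genes have 0.02 and 0.04.

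Members were also split by whether they share exonic bases with another gene. For IP over input in sh-NC, 28 of 41 sharing members were low and 7 high (median -0.58), and of 37 others 24 were low and 8 high (median -0.53). Between the arms in the input, 5 were higher and 7 lower of 37 members that share no base, and 1 higher and 2 lower of 40 sharing members. Over all genes tested, sharing bases or not, 11.7% were higher and 12.3% lower. The shares of all genes within each class are not given here. The 2 sets of members were not tested against each other.

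The last comparison asked whether IP over input changed with METTL14 knockdown. No member of 78 passed the test in either direction with edgeR, and none did with DESeq2. Over all 22953 genes edgeR called 0 higher (0.0%) and 1 lower (0.00436%), and without the first sh-NC culture 6 and 116, none of them members. At an unadjusted p under 0.05, 4 members were higher and 1 lower (5.13% and 1.28%), where 3.03% and 3.31% of all genes were. The members' median change was 0.03, with quartiles of -0.03 and 0.11, against 0.00 over all genes. By sign, 51 of 78 members lay above 0 and 27 below, where 50.4% of all genes lay below. With the lowest-ratio factors the members' median was -0.03, and 2 members were higher and 7 lower at the unadjusted threshold. The scaling sets the typical gene to 0, so a shift shared by all messengers would not appear in these values.

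**Figure D5:**
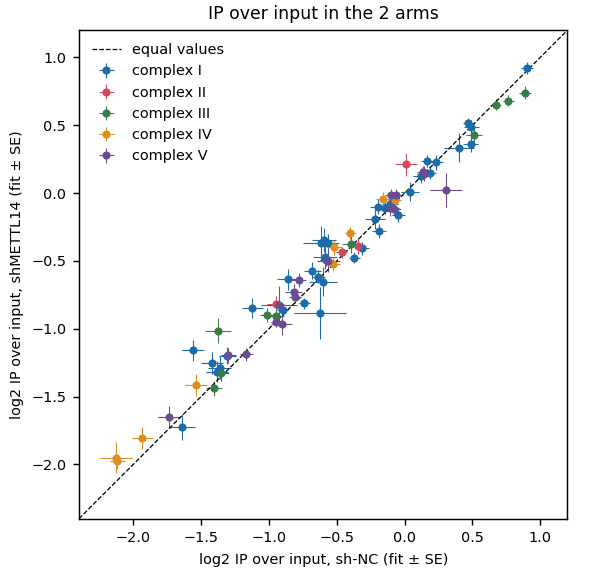
Fitted log2 IP over input with standard errors in sh-NC (horizontal axis) and in shMETTL14 (vertical axis) for the 77 members with a mean of at least 1 CPM in sh-NC input, coloured by complex; the dashed line marks equal values. Points follow the line, with a median distance between the arms of 0.08, and the farthest is NDUFS8 at 0.40.

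The member with the smallest p was NDUFS8, an iron-sulfur core subunit of the Q module. Its ratio went from 0.346 and 0.336 in sh-NC to 0.456 and 0.441 in shMETTL14, so the arms did not overlap. The change was 0.40 ± 0.11 on the log2 scale (adjusted p = 0.485). In the IP libraries it had 10.7 and 11.2 CPM in sh-NC beside 14.3 and 13.4 CPM in shMETTL14, and in the input 30.9 and 33.4 CPM against 31.4 and 30.3 CPM. UQCR10 had 0.418 and 0.347 against 0.513 and 0.479 (change 0.36 ± 0.13, adjusted p = 0.640). NDUFA4 had 0.449 and 0.472 against 0.567 and 0.544 (change 0.27 ± 0.11, adjusted p = 0.679). NDUFV2 was the other member higher at the unadjusted threshold, with a change of 0.23 ± 0.11. These members were low in the IP in both arms.

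In the other direction UQCRHL had 1.72 and 1.99 against 1.73 and 1.61 (change -0.15 ± 0.07, adjusted p = 0.720), and its arms overlapped. NDUFS1 had 0.765 and 0.783 against 0.721 and 0.717 (change -0.11 ± 0.06, adjusted p = 0.807), and its arms did not overlap. NDUFB7 had 0.965 and 0.977 against 0.958 and 0.832 (change -0.12 ± 0.07, adjusted p = 0.817). By complex the medians were 0.03 for complex I, 0.08 for complex II, 0.00 for complex III, 0.12 for complex IV and 0.04 for complex V. The standard error of a member's change had a median of 0.08. A change of 0.40 ± 0.11, that of NDUFS8, did not pass, so changes of that size or less could go uncalled with these cultures. METTL14's own messenger had a change of 0.09 (adjusted p = 0.911).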

How the data were processed

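MeRIP-seq libraries of SK-N-BE(2) cells were analysed, an IP and an input from each of 2 cultures per arm, and each library was assigned by its label, whose title matches 1 column. The authors deposited raw counts per gene, without normalization, with exon coordinates and length. Per the labels, libraries were stranded with molecular identifiers and paired reads, and the submitters' processing notes name Trimmomatic 0.36 and GRCh38; the counting tool, its strand setting and the treatment of duplicates are not given in the sources used here. Kept duplicates would make reads other than independent molecules. The table holds 56303 genes, 16597 without a count, and no column of other samples.

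Counts were analysed with edgeR 4.0.16 in R 4.3.3: filterByExpr, TMM factors, glmQLFit and glmQLFTest on all genes, Benjamini-Hochberg adjustment and a threshold of 0.05. The input comparison used 4 input libraries, the others 1 model of 8 libraries with 4 group means. The SE of a log2 value was its size over the root of its F statistic. CPM use TMM factors of all 8 libraries. The labels do not say that cultures were separate infections. The p-values measure the spread between these libraries, which need not be that of separate infections. Deviations of replicate libraries exceeded sampling noise (chi-square of 2.41 to 3.90 for each gene on average). Kept duplicates could also raise this value, so it cannot tell separate cultures from repeats of the same RNA. The cultures are taken as separate by their labels. IP and input of a culture share RNA by protocol. Over 22953 genes the deviations of the pair had r = -0.03 (sh-NC) and -0.01 (shMETTL14). A spread shared by both libraries of a culture was thus not seen. The fit with a replicate block is an alternative.

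The naming rule, gene lists, motifs and named members (in each complex the smallest p per direction among calls whose arms do not overlap, the highest level, the extremes of IP over input, the smallest p for its change, isoform sets, complex II and genes below the filter), and other members given by value, were chosen with earlier results of these data known. As alternatives, each culture was left out in turn, genes sharing exonic bases were dropped, pseudogenes were summed with their gene, the count filter and the libraries in the model were varied, and DESeq2 1.42.0, RLE factors, plain library sizes and factors set on the lowest 25% of genes by IP over input (the lowest-ratio factors) were used. The fits were also run on simulated counts, but the outcome is not given here and is not used as support. Figures were drawn with matplotlib 3.10.9. The motif m6A needs was not searched, since transcript sequences were not used here.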

Additional observations from a re-analysis of the deposited data

How the results depend on the processing

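All calls rest on 2 cultures per arm, and 7 members had too few counts to be tested in the input. Over single cultures left out, the input gave 0 to 6 members higher and 0 to 6 lower with a median of -0.0279 to 0.00923, the IP gave 2 to 9 higher and 2 to 5 lower with a median of 0.01 to 0.03, the sh-NC IP over its input gave 12 to 15 higher and 48 to 52 lower with a median of -0.59 to -0.46, and that of shMETTL14 8 to 16 higher and 46 to 52 lower with a median of -0.48 to -0.39. For the change, no member was called and the median lay between 0.0003 and 0.07. Without a filter beyond 1 read, 1 member was higher and 1 lower in the input, and 7 were higher in the IP. Over all genes the input calls also came down under that setting, from 2607 higher and 2732 lower to 1082 and 1072. Those higher in the IP went from 2248 to 1909. The cause was not tested. With DESeq2 the IP gave 7 higher and 3 lower. Among genes sharing no exonic base only 37 members could be tested, with a median of -0.0192 in the input, 7 higher and 2 lower in the IP, 8 higher and 24 lower in IP over input in sh-NC, and 8 and 23 in shMETTL14.

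With library size only, IP over input gave 9 higher and a median of -0.67 in sh-NC, and 9 higher and -0.57 in shMETTL14. With the lowest-ratio factors 50 were higher and 17 lower with a median of 0.37 in sh-NC, and 48 and 15 with a median of 0.40 in shMETTL14, by the construction of those factors. SDHA (0.45), SDHC (0.58), COX6A1 (0.40), COX7A2 (0.39), COX7B (0.76) and ATP5G3 (0.10) then turned from low to high in sh-NC. Over all called genes the share higher in the IP in sh-NC went from 39.4% with library size only to 93.9% with those factors. With the replicate block, which pairs IP and input of a culture, the sh-NC counts stayed at 15 and 52, while the input gave 6 higher and 10 lower, where same numbers of the arms share only a number; COX6B1 was the added one (adjusted p = 0.0422). Of 622 values of single named members under the alternatives, 565 kept their direction and their side of the threshold, 47 lost the call, 4 gained one and 6 turned.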
